A study of Mus musculus with 4 samples.

Results

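The regulators of the integrated stress response (ISR) described here are 10 genes chosen by name, Atf4, Atf3, Ddit3, Trib3, Chac1, Sesn2, Ppp1r15a, Eif2ak3, Eif2ak4 and Cebpb, of the 24421 genes in the deposited count tables. RNA came from lung endothelial cells (ECs) of 2 male inducible ADAR1 KO (i-KO) mice of the C57/BL6 strain, 2 weeks old and from independent litters, in which exons 12 to 15 of the Adar gene are flanked by loxP sites. The ECs of each mouse were divided, 1 culture received 4-OH-tamoxifen (TM) at the third passage to switch on the Cre recombinase and delete these exons, and the other stayed untreated (CON), so that the mice, EC1 and EC2, gave 4 libraries, with n = 2 per group and the groups paired. Each of the 4 cultures carried the floxed alleles and the inducible Cre, whose promoter is not given in the sources used here. No culture with an intact Adar gene received TM, so an effect of TM or of Cre on these genes cannot be told apart from an effect of the deletion.

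The ISR is a common path by which several kinds of stress lower protein synthesis. Kinases that sense unfolded protein, lack of amino acids, lack of haem or double-stranded RNA phosphorylate the translation factor eIF2α, which slows general translation while a few mRNAs with upstream reading frames, that of the transcription factor ATF4 among them, are translated more. ATF4 and its bZIP partners then raise genes of amino acid supply, a phosphatase subunit that ends the response, and factors linked to cell death.

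ATF4 binds, often with a C/EBP partner, to C/EBP-ATF response elements, while related factors bind the cyclic AMP response element. The 250 bases before the RefSeq transcript start of each member (GRCm38, 11 windows, since Eif2ak4 has 2 starts) were searched on both strands for the core TGATGNAA of the former, where N is any base, and for TGACGTCA, the palindrome of the latter. No window held both, so no match of one overlapped a match of the other. TGATGNAA was found in the windows of Atf3 and Chac1, which are 2 of the genes with the lowest levels in CON below, and in 3.45% of 32851 windows of the same length over all genes. TGACGTCA was found in the window of Ppp1r15a, and in 1.55% of all windows. The 3 windows are shown because they hold these matches, which are in capitals. They run 5′ to 3′ on the strand of the gene and end at the base before the start, and both matches to TGATGNAA are on the opposite strand and so appear reversed and complemented.
Atf3 (chr1:191183334-191183583, minus strand): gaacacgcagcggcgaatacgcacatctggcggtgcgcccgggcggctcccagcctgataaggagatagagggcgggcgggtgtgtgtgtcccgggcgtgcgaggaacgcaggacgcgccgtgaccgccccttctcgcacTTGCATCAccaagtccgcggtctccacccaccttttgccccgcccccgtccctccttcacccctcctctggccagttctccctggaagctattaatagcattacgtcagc
Chac1 (chr2:119350992-119351241, plus strand): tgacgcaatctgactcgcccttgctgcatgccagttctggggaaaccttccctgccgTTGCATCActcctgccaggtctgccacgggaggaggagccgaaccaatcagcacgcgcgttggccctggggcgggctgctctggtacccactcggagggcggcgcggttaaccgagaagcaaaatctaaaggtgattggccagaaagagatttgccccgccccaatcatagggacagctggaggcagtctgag
Ppp1r15a (chr7:45526269-45526518, minus strand): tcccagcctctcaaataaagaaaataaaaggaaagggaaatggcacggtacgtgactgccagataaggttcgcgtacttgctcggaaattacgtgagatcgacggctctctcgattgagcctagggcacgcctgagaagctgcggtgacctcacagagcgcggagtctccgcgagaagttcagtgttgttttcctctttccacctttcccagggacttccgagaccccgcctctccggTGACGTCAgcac
In the Atf3 window the match covers bases 110 to 103 before the start, in that of Chac1 bases 193 to 186, and in that of Ppp1r15a bases 12 to 5. The other 7 members held neither string in their windows, which says only that these letters are not in these 250 bases.

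Each gene was read in 2 ways, and values of a group are given for EC1 first and EC2 second. Counts on genes summed to 1095488 and 1222301 in EC1 CON and EC2 CON and to 1096152 and 1778732 in EC1 TM and EC2 TM, or 0.823% to 0.858% of everything the count tables hold, so many members had few counts. The deposited site table gives the reads over each candidate A-to-G site, on either strand, and the median over a gene's exonic sites was taken as its exonic depth. Depth was scaled to a count table total of 100000000 (the sum of every row, 131796753 to 207323870 by library). A library lists a site only where it had an altered base, so the sites of CON and TM are mostly different positions, and a gene of low depth has few. Set against the read pairs that exonic depth and exon length imply, the counts of Ddit3 were 9.68% to 28.9% and those of Cebpb 1.61% to 2.68%, while those of the other 8 members lay between 0.0623% and 2.06% where both were above 0. Ddit3 shares 68 exon bases with Mars on the opposite strand and Cebpb 312 with Tmem189, and their counts cannot be told apart from reads of these neighbours here.

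Adar itself checked the labels. Listed sites of exons 12 to 14 had a median depth of 145 reads in EC1 CON (3 sites) and 169 in EC2 CON (1 site), none in EC1 TM, and 65.5 in EC2 TM (2 sites), although the depth over exons 1 to 11 was 152.5 and 176 in CON and 664 and 960 in TM. Over the whole gene, Adar was 4.07-fold higher in TM by depth (log2 2.03 ± 0.27 (SE), adjusted p = 2.8e-06, limma) and log2 1.87 ± 0.45 higher by counts (adjusted p = 0.0061, edgeR), a call that was lost without EC1 CON (0.109), with DESeq2 (0.089) and with DESeq2 and the mouse as a block (0.126). Here and below, a fit without a library leaves 1 library in its group, which is then taken to vary like the other group. Exon 15 did not follow exons 12 to 14. Its listed sites had 99 and 156 reads in CON (9 and 2 sites) and 422 and 835 in TM (17 and 15 sites), so that exons 12 to 15 pooled were higher in TM (137 and 165 in CON, 422 and 543 in TM). All sites of exon 15 listed in TM lie in its 3′ UTR, while its coding part had 1 site in each CON library (141 and 165 reads) and none in TM. Which bases of exon 15 lie between the loxP sites is not given in the sources used here, so the labels were checked by exons 12 to 14 alone, on 4 sites in CON and 2 in TM. Of 12 endothelial markers all were counted, with summed levels of 1388 and 1192 CPM (counts on genes after edgeR's TMM scaling) in CON and 1183 and 1283 in TM. Leukocyte markers summed to 72.1 to 77.4 CPM in CON and 75.1 to 99.5 in TM with 2 of 10 at 0 (Cd3e and Lyz2), fibroblast and smooth muscle markers to 84.8 to 97.9 and 70.0 to 112 with none of 10 at 0, and epithelial markers to 13.7 to 21.4 and 16.5 to 19.9 with 3 of 10 at 0 (Krt5, Foxj1 and Nkx2-1). By scaled exonic depth the fibroblast and smooth muscle markers summed to 482 and 696 in CON and to 123 and 207 in TM, the endothelial markers to 18273 and 22875 and to 15867 and 17383. These sums leave out a marker in any library that lists no exonic site of it. At least 3 sites in every library were listed for 11 of 12 endothelial but 0 of 10 fibroblast and smooth muscle markers. The sums of the latter may thus cover different genes and cannot be compared between CON and TM. None of 11 endothelial markers passed by depth (limma, median log2 -0.42, 5 lower at an unadjusted p under 0.05 and 5 with the mouse as a block), the smallest p being those of Esam (log2 -0.79 ± 0.28, adjusted p = 0.069) and Erg (-0.71 ± 0.28, 0.098). By counts none of 9 endothelial, 3 leukocyte, 4 fibroblast and smooth muscle and 1 epithelial markers passed (edgeR, with 1 endothelial marker, Tie1, lower at an unadjusted p under 0.05, which also passed with the mouse as a block; none with DESeq2). The part of these cells in the results was not tested, and in RNA from whole cultures a change in RNA per cell cannot be told apart from a change in the share of cells that hold it.

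By exonic depth, 3 of the 6 members with at least 3 listed exonic sites in every library rose in TM and none fell, against 6.39% of the 6836 genes tested that rose (437, with 372 lower). These were Trib3, Ppp1r15a and Atf4. With the mouse as a block, Cebpb and Sesn2 passed too (5 of 6, against 9.7% of all genes). Both TM libraries lay above both CON libraries in 5 of the 6, the exception being Eif2ak4, and in 27.2% of all genes tested. None of the members was lower at an unadjusted p under 0.05. By counts, 5 of 9 members tested rose with edgeR, Ddit3, Trib3, Atf3, Chac1 and Cebpb, against 4.39% of 7899 genes (347, with 265 lower). None fell, none was lower at an unadjusted p under 0.05, and none fell with DESeq2. Atf3, Trib3, Chac1 and Sesn2 passed the filter on low counts only through their TM libraries, so that the count of 5 carries no weight. In a fit of only the 6077 genes with at least 10 counts in every library, which held 5 members, Ddit3, Cebpb, Atf4 and Ppp1r15a rose and Eif2ak4 did not pass, against 4.31% of these genes. With the mouse as a block 7 of 9 rose (7.6% of all genes), Atf3, Trib3 and Chac1 among them. With DESeq2 4 of 10 rose (2.26%), Trib3 and Chac1 among them. Since they hold these members, the counts of 7 and 4 carry no weight either. With DESeq2 and the block 3 rose, Ddit3, Cebpb and Trib3, and Atf3, Chac1, Sesn2 and Eif2ak3 were given no adjusted p. Over all genes 225 rose in that fit, with 176 lower, and their share of the genes given an adjusted p was not computed. The counts of Ddit3 and Cebpb cannot be told apart from reads of their neighbours on the opposite strand. Since Trib3 passed the filter on low counts only through TM, the count of 3 carries no weight either.

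**Figure D1:**
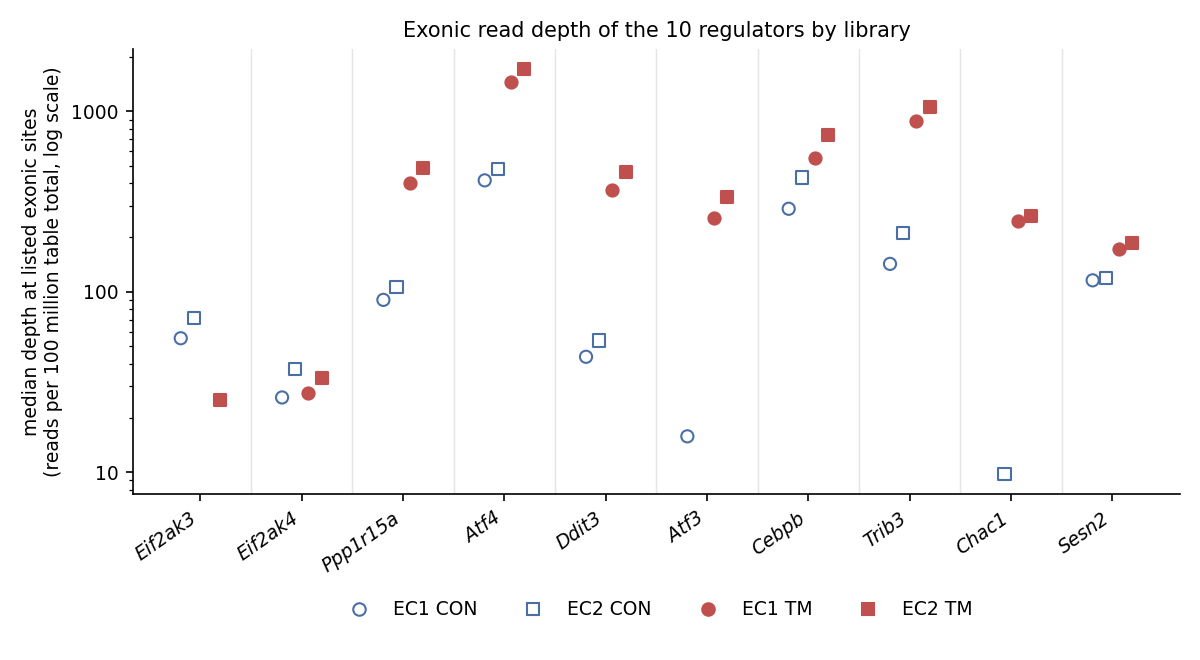
Median read depth at the listed exonic sites of each member, in reads per 100000000 of the library's count table total, on a log axis, with 1 point per library (open blue, CON; filled red, TM; circle, EC1; square, EC2; no point where a library lists no exonic site). The red points lie above the blue ones in 8 of the 10 members. They overlap in Eif2ak4, and the only TM point of Eif2ak3 lies below both CON points. Among the 6 members tested by depth TM lies above CON in 5, against 27.2% of all genes tested. Atf3, Chac1 and Ddit3 had too few CON sites to be tested.

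Exonic depth counts reads over a base, so it can be compared between genes. In CON the levels followed the order Atf4 (415 and 481 in EC1 and EC2, scaled), Cebpb (289 and 431), Trib3 (143 and 212), Sesn2 (116 and 120), Ppp1r15a (90.2 and 106), Eif2ak3 (55.2 and 71.8), Ddit3 (43.6 and 53.6, 1 site each) and Eif2ak4 (25.9 and 37.3), with Atf3 at 15.8 in EC1 and Chac1 at 9.75 in EC2. The ranges of Atf4 and Cebpb overlapped, and so did none of the other neighbours among these 8. In TM the order became Atf4 (1464 and 1709), Trib3 (884 and 1054), Cebpb (552 and 741), Ppp1r15a (401 and 488), Ddit3 (366 and 459), Atf3 (255 and 335), Chac1 (248 and 262), Sesn2 (173 and 185), Eif2ak4 (27.3 and 33.0) and Eif2ak3 (25.1, EC2 alone). The ranges of Ppp1r15a and Ddit3 overlapped there, and so did those of Atf3 and Chac1.

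The kinases came first in the path. Eif2ak3 encodes PERK, the kinase that senses unfolded protein in the endoplasmic reticulum (chr6:70844515-70905245, plus strand). It had 7 and 6 counts in EC1 CON and EC2 CON and 2 and 4 in EC1 TM and EC2 TM, too few for the edgeR test, and DESeq2 gave an adjusted p of 0.94. Its median exonic depth was 73.5 reads in EC1 CON (10 sites) and 103 in EC2 CON (13 sites), while EC1 TM listed no exonic site and EC2 TM had 52 reads (6 sites). It was thus the only member whose TM values all lay below its CON values in both readouts, and at the 2 sites that EC2 listed in both libraries the log2 ratio of scaled depth was -1.61. This gene was tested by neither main fit.

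Eif2ak4 encodes GCN2, which senses uncharged tRNA (chr2:118388618-118475234, plus strand). It had 22 and 12 counts in CON, against 18 and 52 in TM, and median exonic depths of 34.5 and 53.5 reads in CON and 36 and 68.5 in TM, so the groups overlapped in both readouts. The log2 fold change was 0.61 ± 0.48 by counts (adjusted p = 0.53, edgeR) and -0.05 ± 0.34 by depth (adjusted p = 0.95, limma). Of the other eIF2α kinases, Eif2ak2, which encodes the double-stranded RNA sensor PKR, had 150.5 and 165 reads in CON and 466.5 and 710 in TM, and was 3.05-fold higher by depth (log2 1.61 ± 0.27, adjusted p = 8.8e-05, limma). By counts it had 120 and 93 in CON and 225 and 266 in TM, a log2 change of 0.88 ± 0.31 with an adjusted p of 0.075 (edgeR; 0.0021 with the mouse as a block). Eif2ak1, the haem-regulated kinase, had 130 and 175.5 reads in CON and 140.5 and 261 in TM, with scaled log2 changes of 0.08 ± 0.28 by depth (adjusted p = 0.90, limma) and 0.05 ± 0.35 by counts (adjusted p = 0.96, edgeR). Of the 4 kinases, only Eif2ak2 rose in a main fit.

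Ppp1r15a encodes GADD34, the inducible subunit that brings a phosphatase to eIF2α and so ends the response (chr7:45522916-45526268, minus strand). Its exonic depth was 120 and 152 reads in CON (10 and 9 sites) and 528 and 1011 in TM (37 and 43 sites). Scaled for depth of sequencing, TM was 4.44-fold above CON in EC1 and 4.60-fold in EC2, and limma gave log2 2.18 ± 0.28 (adjusted p = 9.3e-07). It had 15 and 15 counts in CON, against 32 and 66 in TM, log2 1.30 ± 0.44, with an adjusted p of 0.064 (edgeR; 0.028 with the block, and 0.044 without EC1 TM). The 2 groups did not overlap in either readout. Ppp1r15b, the constitutive partner in that role, was 2.01-fold higher by depth (log2 1.01 ± 0.28, adjusted p = 0.014, limma), a call that was lost without EC1 TM (adjusted p = 0.13) or EC2 TM (0.28).

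Atf4, the central transcription factor of the response (chr15:80255184-80257541, plus strand), had the highest depth of the members in every library. Its median exonic depth was 552 and 690.5 reads in CON and 1930 and 3544 in TM, which was 3.53-fold higher in EC1 and 3.55-fold in EC2 after scaling (log2 1.82 ± 0.29, adjusted p = 4.3e-05, limma). Sites that CON and TM of a mouse both listed gave log2 ratios of 1.68 over 4 sites in EC1 and 1.78 over 5 sites in EC2, with TM higher at all 9. Counts were 19 and 26 in CON and 47 and 88 in TM, log2 1.19 ± 0.40 (adjusted p = 0.061, edgeR; 0.019 with the block, and 0.049 without EC1 TM).

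Ddit3 encodes CHOP, a bZIP factor linked to cell death under lasting stress (chr10:127290774-127296288, plus strand). It had the most counts of the members, 136 and 189 in CON and 563 and 781 in TM, and rose by log2 1.70 ± 0.30 (adjusted p = 0.00021, edgeR), with all 4 fits that left out a library still past the threshold. Each CON library listed 1 exonic site, with 58 and 77 reads, against 19 sites with a median of 483 reads in EC1 TM and 18 sites with 951 in EC2 TM. Only 4 of its 37 listed exonic sites lie on exons of genes of the opposite strand, and without them the medians were 58, 77, 492 and 962.5 reads in the order EC1 CON, EC2 CON, EC1 TM, EC2 TM. TM lay above CON in both mice by either readout, but its counts, and so their rise, cannot be told apart from reads of Mars here. The fit of depth that asked for 1 site per library gave log2 3.08 (adjusted p = 0.00012, limma). Mars, the methionyl-tRNA synthetase gene that shares its 3′ end, rose as well by counts (105 and 64 in CON, 396 and 808 in TM, log2 2.43 ± 0.32, adjusted p = 2.8e-06, edgeR) and by depth (log2 1.74 ± 0.29, adjusted p = 7.5e-05, limma). The counts of Mars cannot be told apart from reads of Ddit3 either, so they are no separate evidence of a rise.

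Atf3, a stress-induced bZIP factor downstream of ATF4 (chr1:191170296-191218039, minus strand), was near the floor in CON. It had 0 and 2 counts in CON, against 15 and 33 in TM, a ratio of 18.6 with an exact 95% counting interval of 4.88 to 158 (adjusted p = 0.0024, edgeR). The call was lost without EC1 CON (adjusted p = 0.055), without EC2 TM (0.21) and with DESeq2 (0.080). EC1 CON listed 3 exonic sites with a median of 21 reads and EC2 CON none, whereas EC1 TM had 336 reads over 15 sites and EC2 TM 694.5 over 20 sites. TM lay above CON wherever both had a value. The limma fit could not include it for lack of sites in CON.

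Cebpb encodes C/EBPβ, a dimer partner of ATF4 (chr2:167688915-167690418, plus strand). It had 75 and 74 counts in CON, against 145 and 302 in TM and rose by log2 1.18 ± 0.31 (adjusted p = 0.015, edgeR). Both TM libraries lay above both CON libraries by counts, which cannot be told apart from reads of Tmem189 here. The call was lost without EC1 CON (adjusted p = 0.11), EC2 CON (0.097) or EC2 TM (0.17). Its exonic depth was 384 and 618 reads in CON and 728 and 1535.5 in TM, log2 0.86 ± 0.29, which missed the threshold (adjusted p = 0.055, limma) and passed it with the mouse as a block (0.011). At the sites that lie outside the exons of Tmem189, 37 of 51, the medians were 408 and 562 reads in CON and 955 and 1927 in TM. The groups did not overlap there either.

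Trib3, a pseudokinase induced by ATF4 and CHOP that restrains ATF4 in turn (chr2:152337422-152344032, minus strand), passed the threshold by depth and, having passed the filter on low counts only through TM, by counts. Its exonic depth was 190 and 305 reads in CON (9 and 13 sites) and 1165 and 2186 in TM (36 and 53 sites), 6.19-fold higher in EC1 and 4.96-fold in EC2 (log2 2.47 ± 0.29, adjusted p = 2.0e-07, limma). It had 4 and 2 counts in CON, against 33 and 49 in TM, log2 3.37 ± 0.61 (adjusted p = 0.00033, edgeR). Both calls held without any 1 of the 4 libraries. Its intronic sites had medians of 17 and 6 reads in CON and 100 and 143 in TM, so that the depth within introns differed in the same direction.

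Chac1, which encodes an enzyme that breaks down glutathione (chr2:119351229-119354381, plus strand), had no counts in either CON library and 13 and 16 in TM, which is at least 3.86-fold higher than a floor of 3 counts per library. EdgeR called it (adjusted p = 0.0021), but not without EC1 CON (adjusted p = 0.11), EC2 CON (0.090) or EC1 TM (0.20), and without EC2 TM it could not be tested. DESeq2 gave an adjusted p of 0.0499. EC1 CON listed no exonic site and EC2 CON 1 site with 14 reads, against 327 reads over 8 sites in EC1 TM and 544 over 15 sites in EC2 TM. Sesn2, which encodes a leucine-binding inhibitor of mTORC1 (chr4:132492032-132510501, minus strand), had 4 and 6 counts in CON, against 13 and 27 in TM, log2 1.58 ± 0.65 (adjusted p = 0.15, edgeR). Its exonic depth was 154 and 172 reads in CON and 228 and 384 in TM, 1.49-fold and 1.55-fold higher after scaling (log2 0.60 ± 0.27, adjusted p = 0.17, limma; 0.047 with the block). Its CON and TM values did not overlap, but the difference was past the threshold only in the blocked fit of depth.

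**Figure D2:**
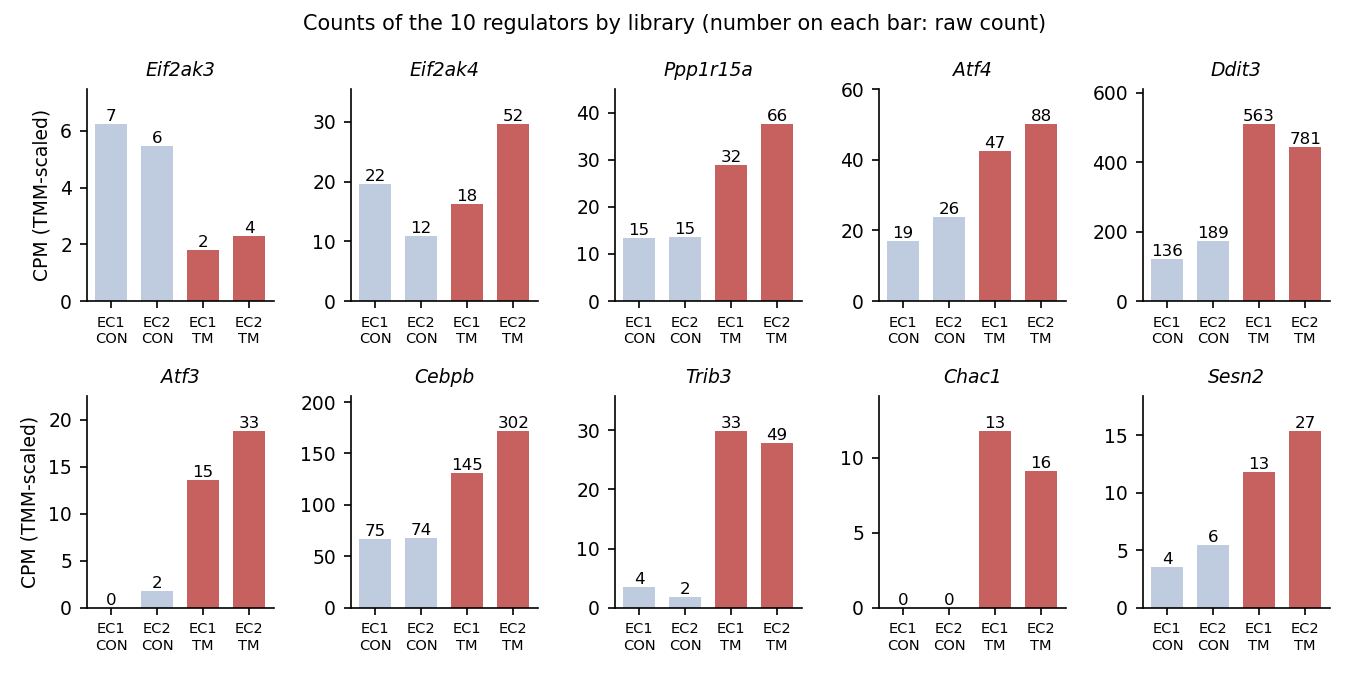
Counts of each member by library in CPM after TMM scaling, with the raw count printed on each bar (pale blue, CON; red, TM; y axes differ between genes and start at 0). TM bars stand above both CON bars in all members but Eif2ak4, where they overlap, and Eif2ak3, where they stand below. The share of all genes with TM above CON by counts was not computed, so the bars do not show whether the members differ from other genes in this. Atf3, Trib3, Chac1 and Sesn2 passed the filter on low counts only through TM.

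**Figure D3:**
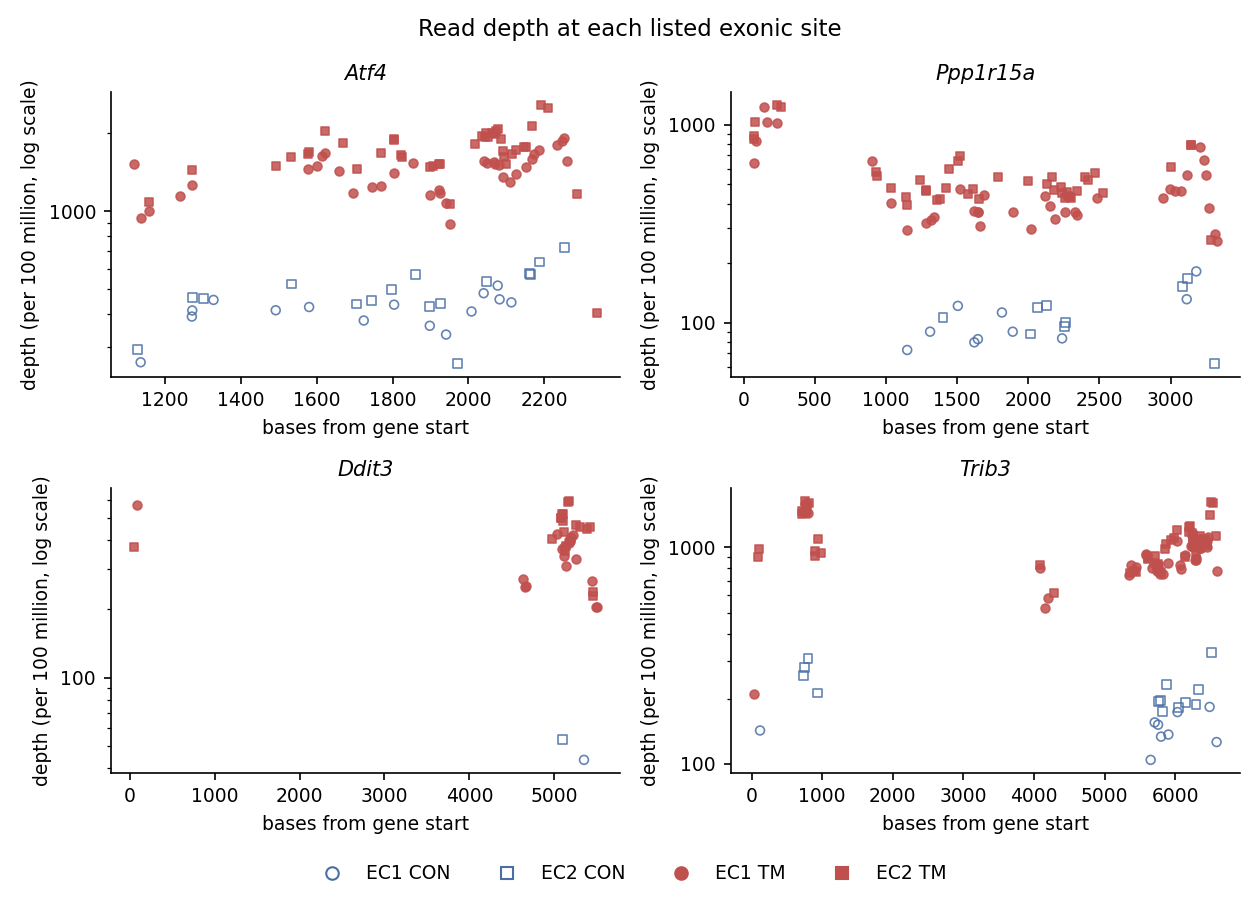
Scaled read depth at each listed exonic site of Atf4, Ppp1r15a, Ddit3 and Trib3 against the distance in bases from the gene start, introns included, on a log axis (open blue, CON; filled red, TM; circle, EC1; square, EC2). Where both groups list sites, those of TM lie above those of CON, with single low sites near the ends. Atf4 has no listed site before base 1118, and Ddit3 has only 1 CON site per library, at bases 5351 in EC1 and 5094 in EC2.

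**Figure D4:**
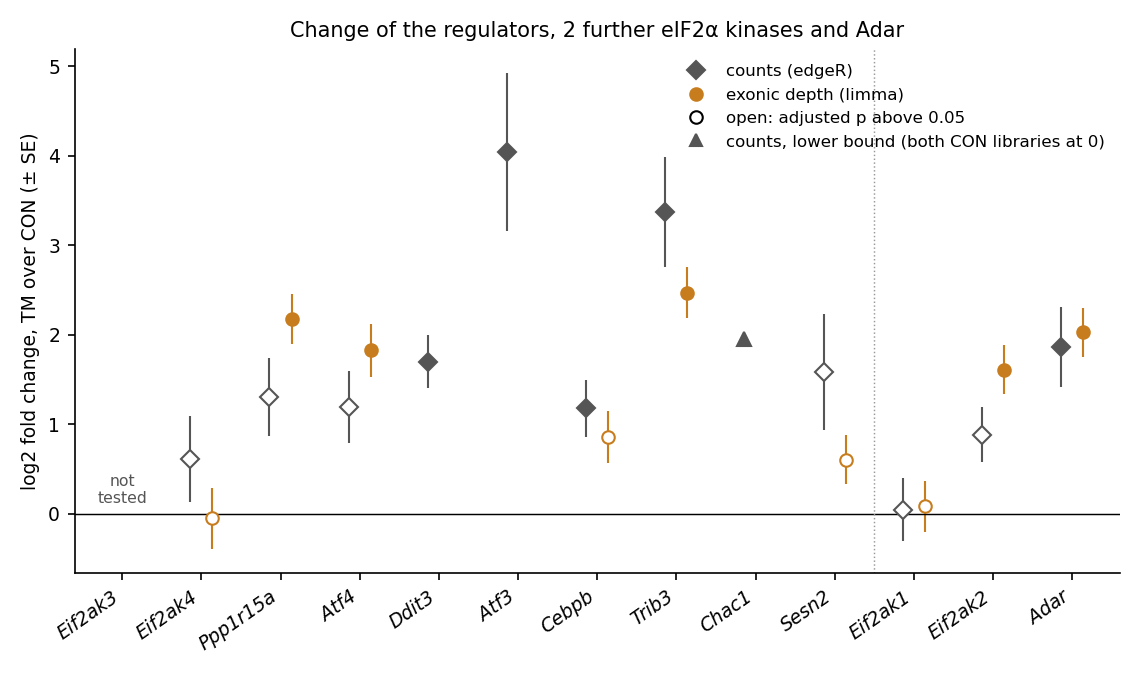
Log2 fold change of TM over CON with its standard error (n = 2 libraries per group) for each member, 2 further eIF2α kinases and Adar, by counts (grey diamonds) and exonic depth (orange circles), filled where the adjusted p was at most 0.05. The triangle of Chac1 is the log2 of its lower bound, and Eif2ak3 was tested by neither; of the members, Trib3 has both marks filled, its counts having passed the filter only through TM.

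Targets of the response were read on a list of 39 genes known to depend on ATF4, none of them a member. The list was chosen with earlier results of these data known, so its shares and medians are no independent test. By exonic depth 19 of 26 tested rose, against 6.39% of all genes tested. None fell or was lower at an unadjusted p under 0.05 (limma), and the median log2 change was 1.65 against 0.01 over all genes. The strongest by p were Slc7a11, the cystine transporter (48 and 80 reads in CON, 411.5 and 1188 in TM, log2 3.24 ± 0.31, adjusted p = 3.8e-09), Nupr1, a stress-induced chromatin protein (118 and 124, then 868.5 and 1260, log2 2.85 ± 0.27, adjusted p = 3.8e-09), Vegfa, the endothelial growth factor (13 and 6, then 123 and 262, log2 4.09 ± 0.38, adjusted p = 2.9e-09), and Asns, asparagine synthetase (108.5 and 162.5, then 835 and 1349, log2 2.74 ± 0.28, adjusted p = 1.4e-08). None of these 4 had a TM library within the range of CON, which carries no weight, since they were picked by p on the same values. By counts 4 of 27 tested had passed the filter only through TM, Vegfa, Mthfd2 and Phgdh among them. In the fit of genes with at least 10 counts in every library, 7 of 20 rose and none fell, against 4.31% of these genes that rose. In the main fit 9 of the 27 rose and none fell, against 4.39% of all genes tested that rose (edgeR, none lower at an unadjusted p under 0.05, and 4 higher and 0 lower with DESeq2). The median was 0.95 against 0.00. Mars was among the 9 that rose, and its counts cannot be told apart from reads of Ddit3 here. Besides Mars these included Vegfa (2 and 0 counts in CON, 35 and 47 in TM, a ratio of 31.8 with a counting interval of 8.53 to 267, adjusted p = 4.7e-05), Mthfd2, a mitochondrial folate enzyme (0 and 0, then 14 and 30, at least 5.50-fold higher, adjusted p = 0.00036), and Phgdh, the first enzyme of serine synthesis (4 and 2, then 23 and 57, log2 3.27 ± 0.63, adjusted p = 0.00064 by edgeR, 0.064 without EC2 TM). The readouts of Slc7a11 differed, as its counts were 508 and 684 in CON, then 328 and 763 (log2 -0.55 ± 0.29, adjusted p = 0.29, edgeR; 0.024 with the block, and 0.14 with DESeq2 and the block). Its counts were 15.4% and 12.4% of the read pairs implied by its depth in CON and 1.16% and 0.932% in TM, against the 0.0623% to 2.06% of 8 members given above, and whether they hold reads of other genes was not tested.

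**Figure D5:**
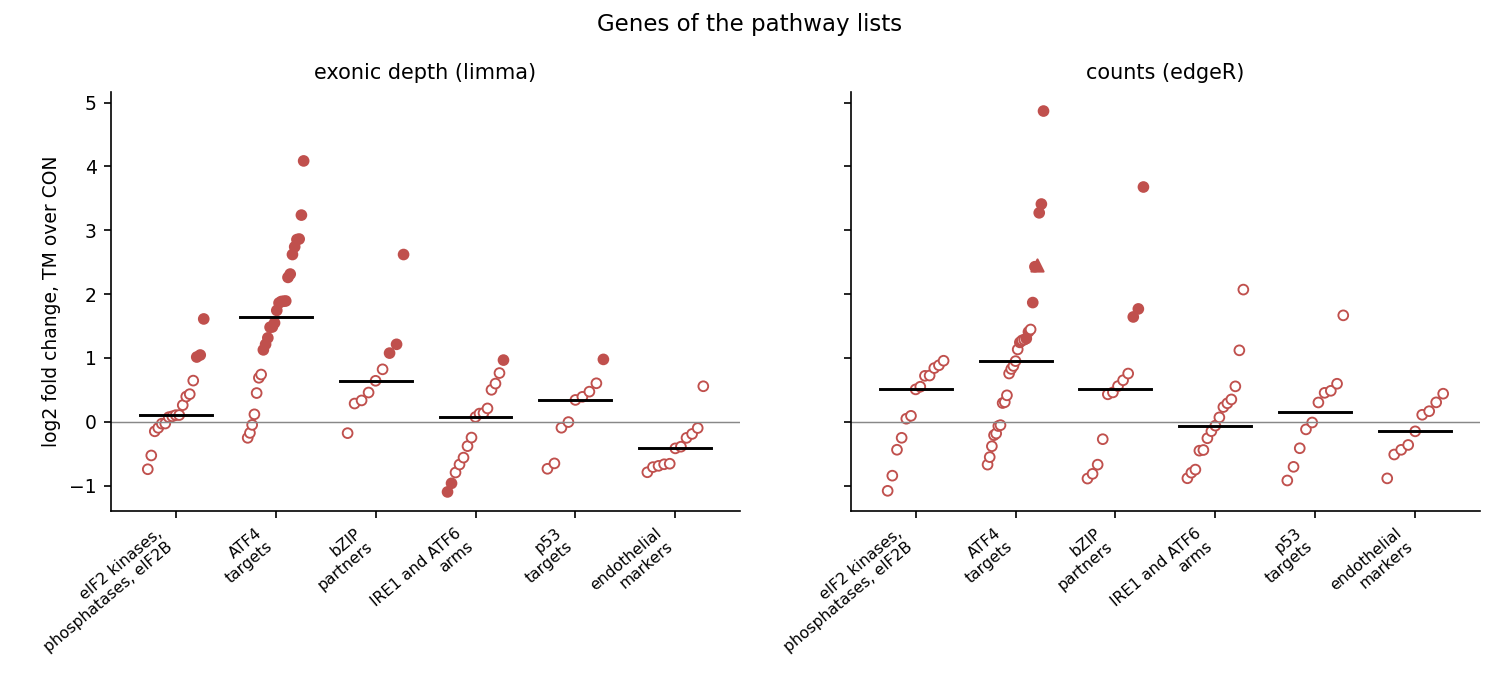
Log2 fold change of each tested gene of 6 lists by exonic depth (left) and by counts (right), filled where the adjusted p was at most 0.05, with the list's median as a black bar (a triangle marks Mthfd2 at its lower bound). The ATF4 targets have the highest medians, 1.65 by depth and 0.95 by counts, while the medians of the IRE1 and ATF6 arms are 0.07 and -0.06. The lists were chosen with earlier results of these data known, so the contrast between them is no independent test.

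Among 15 bZIP partners, 3 of 9 rose by depth, against 6.39% of all genes tested. These were Atf5 (194 and 238 reads in CON, 1133 and 2203 in TM, log2 2.62 ± 0.28, adjusted p = 3.4e-08, limma), Cebpg and Junb. Atf5 and Cebpg are also on the list of ATF4 targets. The log2 changes of Cebpg and Junb were 1.21 ± 0.28 and 1.08 ± 0.27 (adjusted p = 0.0029 and 0.0081, limma), and both calls were lost without EC1 TM (0.051 and 0.12) or EC2 TM (0.11 and 0.26). By counts 3 of 12 rose, Junb, Jdp2 and Cebpa, of which Cebpa had 2 and 0 counts in CON, against 12 and 25 in TM (edgeR). Cebpa passed the filter on low counts only through TM. With at least 10 counts in every library 2 of 11 rose, against 4.31% of these genes. Jdp2, a repressor of the AP-1 family, had 13 and 13 counts in CON, against 44 and 71 in TM (log2 1.77 ± 0.44, adjusted p = 0.0079, edgeR). Junb was not called by counts without EC1 CON (adjusted p = 0.10) or EC2 TM (0.11), nor Cebpa without EC2 CON (0.19) or EC1 TM (0.10). With the mouse as a block, counts gave 4 higher, the 3 above and Atf5 (log2 0.78, adjusted p = 0.00064, edgeR), and 2 lower, Jund and Fosl1, while depth gave 4 higher and none lower. DESeq2 called none of the list, and with the block 1, Atf5 (adjusted p = 0.0167). The counts of Atf5 were 16.7% and 21.1% of the pairs implied by its depth in CON and 5.74% and 5.35% in TM, and 82 of its exon bases are shared with Nup62 on the opposite strand.

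Of 17 genes for eIF2 kinases, phosphatase subunits, eIF2 and eIF2B that are not members, 3 rose by depth, Eif2ak2, Ppp1r15b and Eif2s2 (eIF2β, log2 1.05 ± 0.30, adjusted p = 0.020, limma), with a median of 0.10 and none lower (1 lower at an unadjusted p under 0.05). Over all genes tested by depth, 6.39% rose. The call of Eif2s2 was lost without EC1 CON (adjusted p = 0.081), EC1 TM (0.13) or EC2 TM (0.54). None of 13 passed by counts (edgeR, with 3 higher and 1 lower at an unadjusted p under 0.05; none with DESeq2), and 3 were higher and 1 lower with the mouse as a block.

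The other arms of the unfolded protein response, which raise chaperones and folding enzymes of the endoplasmic reticulum, run through IRE1 and ATF6. Of 17 genes of these arms, 1 of 15 rose by depth, near the 6.39% of all genes tested that rose. Another 2 fell, against 372 of 6836 over all genes, and the median was 0.07. None of 15 passed by counts (edgeR, 1 higher and 2 lower at an unadjusted p under 0.05, none with DESeq2, median -0.06). Ern1, the IRE1α sensor itself, had 69 and 99 reads in CON and 166 and 224.5 in TM (log2 0.97 ± 0.29, adjusted p = 0.027, limma). The chaperones Calr (2957 and 4697 reads, then 1565 and 2761, log2 -1.10 ± 0.32, adjusted p = 0.023) and Pdia6 (1313 and 1840, then 603.5 and 1501, log2 -0.97 ± 0.31, adjusted p = 0.036) fell. These 3 calls were each lost without EC1 TM or EC2 TM, with adjusted p of 0.33 and 0.13 for Ern1, 0.54 and 0.37 for Calr, and 0.75 and 0.18 for Pdia6. With the mouse as a block, 3 genes were higher and 5 lower. By counts the smallest p belonged to Hsp90b1 (log2 -0.80 ± 0.32, 0.017 with the block) and Dnajb9 (log2 2.07 ± 0.85), both with adjusted p above 0.1 (0.13 and 0.15, edgeR). Whether this list and the ATF4 targets differ was not tested.

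Against 6.39% of all genes that rose by depth, targets of p53, several of which also respond to stress by other paths, passed in 1 of 9 tested. That gene was Gadd45a (564 and 693.5 reads in CON, 937 and 2312 in TM, log2 0.98 ± 0.30, adjusted p = 0.028, limma), whose call was lost without EC1 TM (0.15) or EC2 TM (0.65). With the mouse as a block 2 were higher by depth, Gadd45a and Mdm2, and 2 lower, Ccng1 and Zmat3. By counts none of 10 passed (edgeR, 1 higher and 0 lower at an unadjusted p under 0.05; none with DESeq2), the smallest p being those of Trp53inp1 (log2 1.67 ± 0.58, adjusted p = 0.073; 0.039 with the block) and Zmat3 (log2 -0.71 ± 0.39, adjusted p = 0.33).

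Few editing sites of the members were past the authors' limits (at least 5 reads, 3 altered reads and a rate of 5% to 95%). Of 769 listed sites in or near the 10 genes, 3 passed in any library, or 0.390%, against 2.01% of 1205261 sites over all genes. All 3 are intronic, none passed in a CON library, and 2 lie in short interspersed (SINE) repeats. The site in Trib3 (chr2:152343034, in no repeat) was altered in 2.90% of 69 reads in EC1 TM and in 13.3% of 75 in EC2 TM. The site in Sesn2 (chr4:132501709, a B1_Mm element) was altered in 27.3% of 11 reads in EC1 TM and 9.52% of 21 in EC2 TM, and neither site was listed in CON. The site in Eif2ak3 (chr6:70869283, an ID_B1 element) was altered in 15.4% of 13 reads in EC1 CON and 66.7% of 6 reads in EC1 TM. It was the only one that could be tested, with p = 0.046 in Fisher's exact test and an adjusted p of 0.86 over the 11912 sites of EC1, of which 0.747% were called (1.83% of 12864 in EC2, where no member had a site to test). Where CON had fewer reads over a member's introns, as in Trib3, a site had less chance to be listed there, and a difference in editing was not detectable at this depth.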

How the data were processed

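RNA-seq of 4 libraries (CON and TM of 2 mice) was analysed. The authors depleted ribosomal RNA with a kit that keeps strand. Their read pairs of 101 bases each, trimmed by Trimmomatic 0.38, were aligned by STAR 2.6.1a to mm10 (GRCm38), and HTSeq 0.11.2 with its defaults gave the raw, unnormalized counts that the authors deposited per gene. Between 92.8% and 93.9% of each library's total was on no gene and 5.29% to 6.32% not unique, and neither entered the tests. They called variants per library with BCFtools and deposited, for each candidate site, the reads with each base and the fraction of reads altered. Columns of the site table were given to libraries through the study's own list of sites, whose values were equal at all sites held.

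Counts were compared with edgeR 4.0.16 (filterByExpr with a minimum count of 10, TMM, quasi-likelihood test, condition only) in R 4.3.3, and adjusted by Benjamini-Hochberg over all genes at 0.05. Exonic depth was the median over listed sites in exons and UTRs, scaled and put on a log2 scale with no pseudocount, and compared with limma 3.58.1 (trend) for genes with at least 3 sites in every library. Sites were compared within a mouse with Fisher's exact test. The authors' limits on sites were kept. With n = 2 mice per group, p-values measure the spread between these cultures, and counting intervals cover counting error only. A floor of 3 counts was 1.69 to 2.74 CPM. On simulated data with 200 genes changed 4-fold, edgeR found 87% over 7899 genes with 2 false calls, DESeq2 65% with 1, and limma 100% over 6836 genes with 5. The simulation gave every gene the same dispersion of counts and the same spread of depth. It held no pairing by mouse and no selection of sites, so these figures check the fits and are not rates for the real data. Both cultures of a number came from the same mouse, so numbers pair the samples. Deviations from the group means of the same mouse correlated with r = 0.163 by counts and 0.100 by depth across genes.

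The members and gene lists were chosen with earlier results of these data known. All members were named. Of the eIF2 list those past the threshold and both further kinases were named, and of each other list up to 4 genes of smallest p among those past the threshold by counts and by depth, or 2 where none passed. Other ATF4 targets are given as counts. Gene positions came from GENCODE vM21 and promoter windows from RefSeq (GRCm38.p6). Results were recomputed with DESeq2 1.42.0, with the mouse as a block, and with RLE scaling, other filters on counts and sites, centring on the median, and each library left out in turn. Python 3.11.15, pandas 2.3.3 and scipy 1.17.1 were used for sites.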

Additional observations from a re-analysis of the deposited data

How the results depend on the processing

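All genes called by counts numbered 612 with edgeR, 1184 with the mouse as a replicate block, 362 with DESeq2, 401 with DESeq2 and the block, and 436 to 574 when a library was left out. Of the members, 5 were called by counts, 3 with DESeq2 and the block, and 2 to 6 without a library. ATF4 targets higher by counts numbered 9, 4 with DESeq2 with or without the block, and 3 to 11 without a library (3 without EC2 TM). All genes called by exonic depth numbered 809, 1326 with the block, 1442 (568 higher, 874 lower) when centred on the median against 437 higher and 372 lower as scaled, 381 at sites listed in all 4 libraries, 539 with at least 10 sites, and 371 to 912 without a library. Of the members, 3 were called by depth, 5 with the block, and 1 of the 1 member testable both at sites listed in all 4 libraries and with at least 10 sites. ATF4 targets higher by depth numbered 19 of 26 tested, 3 of 6 at sites listed in all 4 libraries, 8 of 12 with at least 10 sites and 11 of 17 without 3′ UTR sites, so that fewer genes were tested in these 3 fits. Passing editing sites in members numbered 3, and 1 with a depth of at least 20 or with 5 altered reads. Among 539 values of single genes under an alternative, 453 kept direction and side of the threshold, 27 passed it anew, 50 no longer passed it, 1 (Atf4 depth at shared sites, log2 1.73) moved by more than the spread between mice, and 8 reversed. The reversed values belong to genes not called as reported, whose log2 change without a library ran from -0.31 to 0.21 for Eif2ak4 by depth, from -0.10 to 0.16 for Eif2ak1 by counts, from -0.0779 to 0.25 for Eif2ak1 by depth and from -0.12 to 0.38 for Dnajb9 by depth, and was -0.14 for Eif2ak1 by depth at sites listed in all 4 libraries. Beyond the calls given with the results, the block changed no other call among the members with edgeR or limma. With DESeq2, Chac1 was called (adjusted p = 0.0499) and was given no adjusted p with the block. Counts on genes were 0.823% to 0.858% of each count table's total, with under 100 counts for 8 of 10 members in every library. Exonic sites were missing for Atf3, Chac1 and Eif2ak3 in 1 library or more. The cause of these differences was not tested.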
